A study of Mus musculus with 2 samples.

Results

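The genes described here build and control the mitotic spindle: cyclins, mitotic kinases, checkpoint and kinetochore proteins, spindle motors, cytokinesis factors and condensins. They were chosen by gene symbol from a list of 58 genes, using the probe sets that the platform annotation assigns to exactly 1 gene. Of the 58 genes, 57 had such a probe set, 135 probe sets in all, out of 18193 genes and 34945 probe sets named in the same way on the array. No probe set named Ccnb1, the gene of cyclin B1, alone, and it was not analysed here.

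Expression was measured on 2 Affymetrix arrays, 1 for each genotype. The cells were bone marrow cells of C57BL/6 mice, cultured for 7 days in 20 ng/ml GM-CSF, a growth factor that turns marrow progenitors into dendritic cells, and then given 10 ng/ml lipopolysaccharide (LPS), the bacterial product that activates them. The groups were wild type + LPS and miR-155-/- + LPS, which lacks the microRNA miR-155; both received GM-CSF and LPS, and no untreated cells were measured. The duration of LPS exposure, the age of the mice and the number of mice behind each array are not given in the labels, and the growth protocol calls the starting cells macrophages. The question was how loss of miR-155 alters the transcripts of LPS-treated dendritic cells. A single array stood for each genotype, so no replicate spread exists, no test was possible, and the differences describe these 2 arrays alone.

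Entry into mitosis is driven by Cdk1 bound to a cyclin. Aurora and Polo kinases then assemble the spindle, the checkpoint holds the cell until every kinetochore is attached, and the anaphase-promoting complex, a ubiquitin ligase, finally destroys cyclin and securin so that sister chromatids part. Transcripts of this machinery accumulate late in the cell cycle and are scarce in resting cells. Mature dendritic cells are known to divide little, while their precursors in GM-CSF cultures do divide. The RNA came from whole cultures, so fewer cycling cells and less RNA per cell cannot be told apart.

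The deposited intensities had a median of 58.4 on the wild-type and 78.3 on the knockout array. They were therefore quantile normalized, which gives both arrays one distribution, so that every difference below is relative to the bulk of all genes. The floor was 67.6, the median over all normalized values; lower values were raised to it, and genes above it on 1 or both arrays are called measured here. A gene above it on 1 array has only a bound, written as "at least". Without scaling, the median measured gene was higher in the knockout by 0.54 on the log2 scale, and control probe sets for 18S ribosomal RNA read 95.1 to 126.1 in wild type and 389.2 to 581.9 in the knockout before scaling. The only error that can be measured is the disagreement between probe sets of one gene, an SD of 0.29 log2 units over 11653 probe sets of 4410 genes, which holds no variation between mice or cultures. The host gene of the deleted microRNA, Mir155hg, read 1136 in wild type and 159 in the knockout. All 16 dendritic cell markers on a list written for this work were measured, 5 higher and 11 lower in the knockout (median -0.09). Itgax, the gene of CD11c, read 4290 and 5331 and Fscn1, an actin bundler of mature dendritic cells, 11740 and 11567. Irf8, a transcription factor of the lineage, had 4551 and 2874 and the maturation marker Cd83 5619 and 3610, both at least 1.5-fold lower. Only Naaa was at least 1.5-fold higher, at 977 and 1745, with 2 of 2 probe sets higher. The part of these differences in those of the mitosis genes was not tested.

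Mitosis and spindle genes did not differ in one direction. Of 57 genes with a probe set, 48 were measured: 43 cleared the floor on both arrays, 2 in wild type only and 3 in knockout only. A further 9 lay below the floor on both: Plk1, Ttk, Cdc25c, Cenpf, Ndc80, Nuf2, Kif4, Kif20b and Ncapg. Of the 48, 30 were higher and 18 lower in knockout cells, 62.5% higher against 51.5% of all 11878 measured genes. Differences are given in log2 units, knockout minus wild type. Their median was 0.05 against 0.01 for all measured genes. The difference was smaller than the probe set SD in 27 of the 48 (56.25%), against 67.3% of all measured genes.

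A size rule of 1.5-fold was used in place of a test. Cenpo, Cks1b and Ncaph were at least 1.5-fold higher in knockout cells, 3 of 48 or 6.25% against a background of 4.57% of all measured genes. Cdc20, Kif2c, Birc5 and Spc25 were at least 1.5-fold lower, 4 of 48 or 8.33% against a background of 4.1%. Cenpo alone passed 2-fold, where 0.572% of measured genes were that much higher and 0.615% that much lower. Just inside the rule lay Spc25 at 1.51-fold, and just outside it lay Cdca8, Cdk1 and Aurkb, each 1.49-fold higher. In either direction the rule took 7 of 48 (14.6%), against a background of 8.67%. These shares rest on few genes, and with averaged probe sets Cenpo, Cks1b, Ncaph, Kif2c and Spc25 did not pass, at 0.39, 0.49, 0.51, -0.36 and -0.34 on the log2 scale, while Aurkb did.

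**Figure D1:**
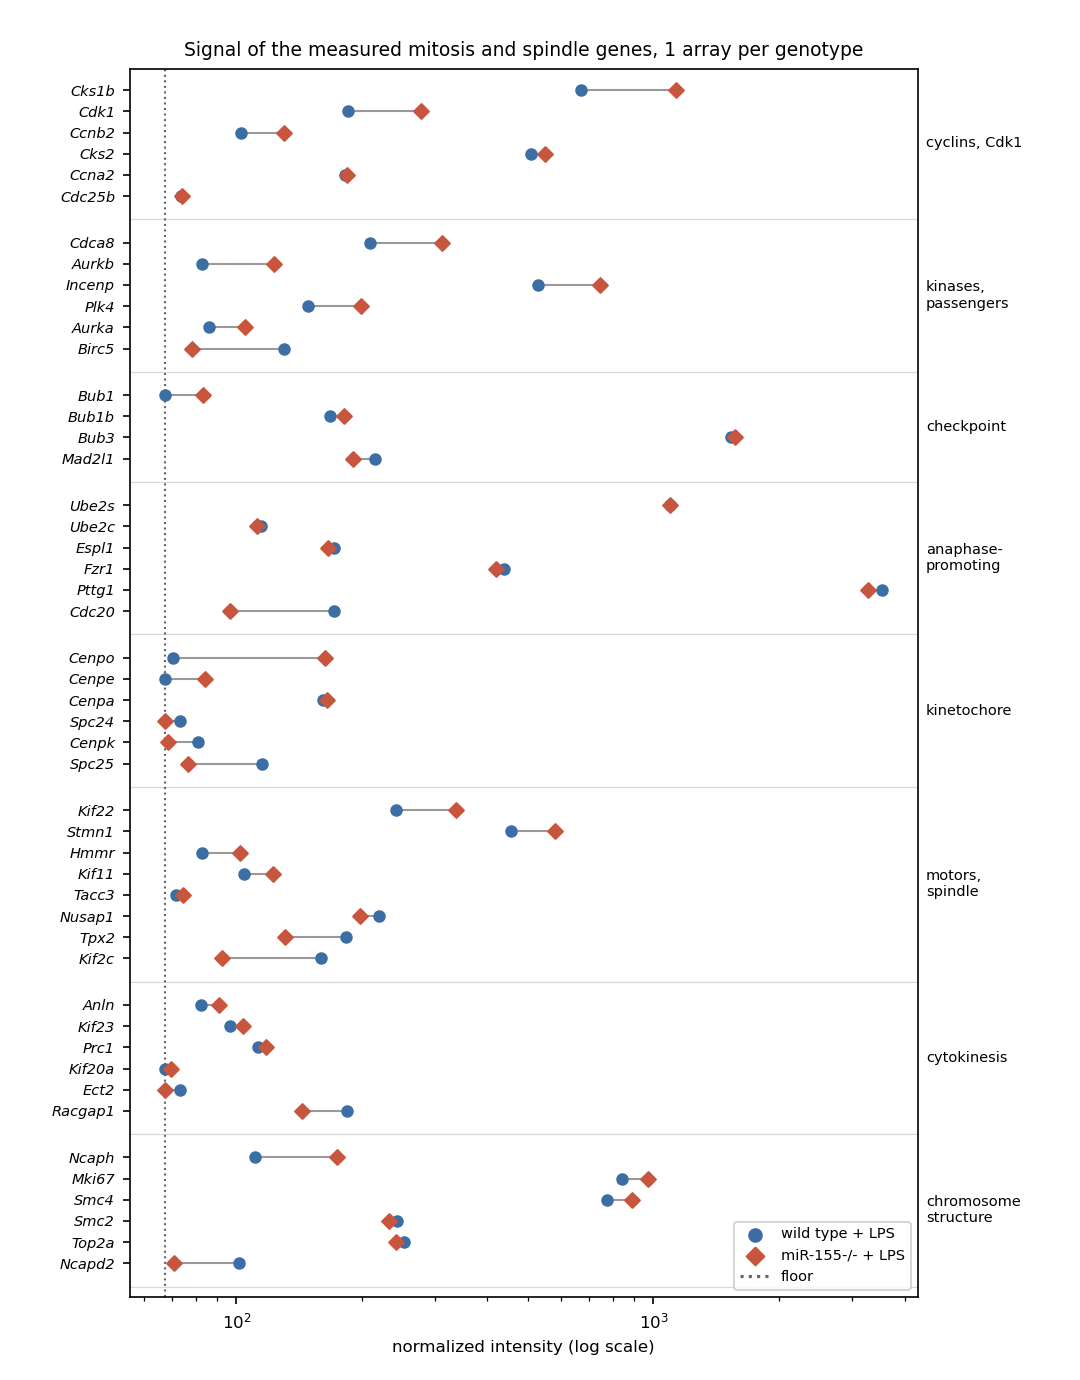
Normalized intensity (log axis) of the 48 measured genes, 1 row per gene and grouped by role, with circles for the wild-type and diamonds for the knockout array; the dotted line is the floor of 67.6. Most genes lie within a few multiples of the floor, the cyclin and kinase groups lean to the right in the knockout apart from Birc5, and Cdc20, Kif2c and Spc25 lie to the left.

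These transcripts were dim. The median of their mean signal over both arrays was 146.7, against 276.3 for all measured genes, and 24 of the 48 lay in the dimmest of 3 equal bins of measured genes by level (mean signals of 67.6 to 150.9), 15 in the middle bin and 9 in the brightest. In the dimmest bin, 2 of the 24 passed 1.5-fold upward and 4 downward (8.33% and 16.7%), against 7.65% and 6.87% of all genes there. In the middle bin, 7 of the 15 were higher and 8 lower, none passed 1.5-fold, and the median was -0.05 against 0.02 for all genes there. In the brightest bin, 8 of the 9 were higher, their median was 0.20, and 1 passed 1.5-fold, against a median of 0.01 and 52.1% higher for all 3959 genes there. The 9 bright genes were Pttg1, Bub3, Ube2s, Mki67, Cks1b, Smc4, Incenp, Cks2 and Stmn1, and only Pttg1 was lower among them. Ube2s, at 0.003, did not exceed the median of all genes there, and Bub3 was at 0.03. Bub3, Cks2, Smc4 and Incenp each had 1 measured probe set that was lower.

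**Figure D2:**
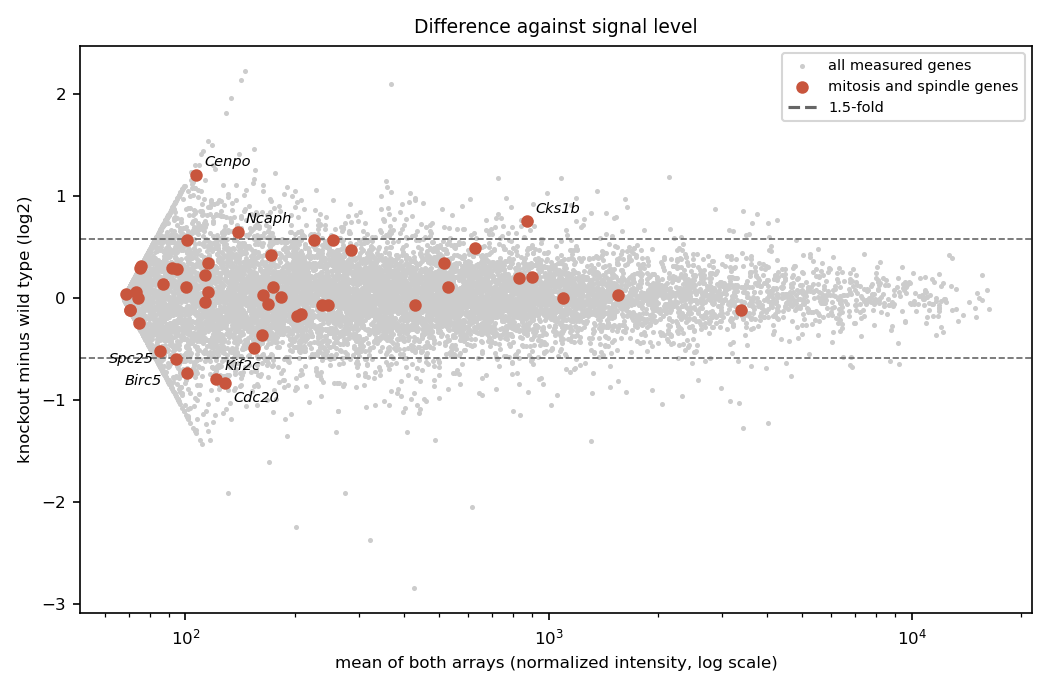
Difference between knockout and wild type (log2, vertical axis) against the mean signal of both arrays (log axis) for 11878 measured genes in grey and the 48 mitosis and spindle genes in red, with dashed lines at 1.5-fold. Differences spread more widely at low signal for all genes, and 6 of the 7 labelled genes lie at mean signals under 150.9, the exception being Cks1b.

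Promoters of these genes shared sequence features that the list did not use. Late cell cycle genes are known to carry a cell cycle homology region (CHR), bound by the MuvB complex, together with CCAAT boxes bound by NF-Y. RefSeq windows from 250 bases before to 50 after the gene start (GRCm38.p6) were on hand for 49 of the 58 genes and were searched on both strands. The CHR letters TTTGAA were found in the windows of 32 of 49 genes (65.3%), against 20.2% of all 27025 genes with a window and 14.4% of the 9612 that were measured. At least 1 CCAAT was found in 35 of 49 (71.4%), against 41.1% of all genes, 62.8% of 43 DNA replication genes and 65.0% of 60 other mitosis genes; TTTGAA was found in 16.3% and 51.7% of these lists. At least 1 CCAAT together with either CHR form, the one above or its variant TTCGAA, was found in 61.2%, against 8.61% of all genes, 16.3% of the replication genes and 40.0% of the other mitosis genes. The E2F letters TTTNGCGC were found in 6.12% of the mitosis and spindle genes, 8.33% of the other mitosis genes, 30.2% of the replication genes and 1.57% of all genes.

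The windows below are those of a pair of genes that were higher in knockout cells, Cks1b and Cdk1, and a pair that were lower, Cdc20 and Spc25; they were chosen after the values were seen, to show that both directions occurred with the same letters near the gene start. Capitals mark the CHR, CCAAT and E2F letters on either strand. On the opposite strand TTTGAA reads as TTCAAA, and the CCAAT box reads as ATTGG. All are written 5′ to 3′ along the strand of the gene, which is the minus strand for each.
Cks1b, chr3:89418242-89418541: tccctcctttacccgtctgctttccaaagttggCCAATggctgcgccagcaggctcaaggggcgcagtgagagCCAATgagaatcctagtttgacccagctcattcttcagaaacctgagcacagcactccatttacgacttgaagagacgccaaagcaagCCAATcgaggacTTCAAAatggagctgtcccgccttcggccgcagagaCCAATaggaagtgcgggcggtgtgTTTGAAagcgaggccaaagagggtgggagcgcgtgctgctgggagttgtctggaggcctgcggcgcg
Cdk1, chr10:69352863-69353162: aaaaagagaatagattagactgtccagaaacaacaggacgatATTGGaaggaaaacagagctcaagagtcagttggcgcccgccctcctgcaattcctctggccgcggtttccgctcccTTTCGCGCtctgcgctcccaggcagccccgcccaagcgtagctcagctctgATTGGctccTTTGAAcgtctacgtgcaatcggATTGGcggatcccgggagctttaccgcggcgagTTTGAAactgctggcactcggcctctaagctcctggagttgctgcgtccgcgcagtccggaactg
Cdc20, chr4:118437294-118437593: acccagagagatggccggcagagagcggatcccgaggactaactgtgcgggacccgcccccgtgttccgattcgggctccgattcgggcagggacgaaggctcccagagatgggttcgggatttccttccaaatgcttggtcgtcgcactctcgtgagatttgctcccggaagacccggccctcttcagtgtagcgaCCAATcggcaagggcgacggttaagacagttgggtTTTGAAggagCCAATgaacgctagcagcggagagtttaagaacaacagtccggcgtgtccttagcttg
Spc25, chr2:69206164-69206463: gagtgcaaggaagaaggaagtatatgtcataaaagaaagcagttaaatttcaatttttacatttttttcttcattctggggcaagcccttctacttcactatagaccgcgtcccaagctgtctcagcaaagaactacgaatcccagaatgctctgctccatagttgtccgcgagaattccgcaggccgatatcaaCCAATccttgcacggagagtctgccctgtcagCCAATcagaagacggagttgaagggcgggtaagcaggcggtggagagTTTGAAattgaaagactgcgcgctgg

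The first base of the TTTGAA nearest the gene start lay at -17 in Cks1b, -15 in Cdk1, -18 in Cdc20 and 25 in Spc25, counted from the start with negative positions upstream. Of the 40 measured genes with a window, the 25 that held TTTGAA had a median difference of 0.06 (15 higher, 10 lower), and the 15 without it one of 0.01 (9 higher, 6 lower). The 29 with CCAAT had a median of 0.06 and the 11 without it one of 0.00. Differences ran from -0.83 to 0.76 in genes with TTTGAA and from -0.73 to 1.21 in genes without it, so the ranges overlapped widely. A match in such a window is a description and does not show that a factor binds there.

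The strand of the deleted microRNA that is known to act in inflammation, miR-155-5p, is given for reference with its seed, bases 2 to 8, in capitals; in RefSeq (GRCm38.p6) it lies on the plus strand of chromosome 16, from 84714143 to 84714165.
mmu-miR-155-5p: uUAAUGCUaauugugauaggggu
Whether transcripts of the mitosis genes hold sites for this seed was not analysed here.

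Cdk1 and its partners were higher in knockout cells in 6 of 6 measured cases, with a median of 0.23 on the log2 scale; relative to the median of all genes it lay between 0.22 and 0.24 under every scaling tried, but it was 0.10 over 7 genes with no floor and 0.31 over 3 genes with the floor at the 75th percentile. Ccna2 and Cdc25b, each at 0.01, did not exceed the median of all genes, which 4 of the 6 did. Cks1b, a small subunit that docks Cdk1 on its substrates, read 671 in wild type and 1133 in the knockout, 1.69-fold higher, and its second probe set had 177 and 206. It was the brightest gene past the size rule. Cdk1, the kinase of mitotic entry, had 186 and 277 at its only probe set. Ccnb2, cyclin B2, had 103 and 130, a difference of 0.35. Ccna2, the cyclin that acts from DNA synthesis into early mitosis, had 183 and 184 at the probe set used and a difference of 0.33 at the other. Cks2, the paralogue of Cks1b, had 508 and 548, and its probe sets disagreed in direction (0.11 and -0.17). Cdc25b, a phosphatase that activates Cdk1, was close to the floor (73.7 and 74.0), and its relative Cdc25c lay below it.

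The kinases and the chromosomal passenger complex had the highest median of the 8 role groups, 0.46, with 5 of 6 measured genes higher. Relative to all genes this median lay between 0.45 and 0.47 under every scaling, but it was 0.27 with averaged probe sets and 0.28 over 5 genes without probe sets of the _x_at and _s_at types, which can detect more than 1 transcript. Aurkb, Cdca8 and Incenp were all represented by such probe sets. The passenger complex corrects faulty kinetochore attachments and consists of a kinase, a scaffold, borealin and survivin. Its kinase gene Aurkb had 82.7 and 122.8, and its second probe set, above the floor in the knockout only, was at least 1.10 higher on the log2 scale. Its scaffold gene Incenp had 528 and 743, with 3 of 4 measured probe sets higher. The floor fixed the direction of 1 of these 3, above it in the knockout only, and of the lower one, above it in wild type only. The remaining one had 258 and 390. Cdca8, which encodes borealin, had 209 and 311, with 2 of 3 probe sets higher and the remaining one at -0.35. Survivin went the other way: its gene Birc5 had 130 and 78.5 at its only probe set, 1.66-fold lower. At the probe sets used, transcripts of this complex differed in direction, but the lower value of Birc5 had no second probe set as a check.

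The other kinases were higher by less. Aurka, the spindle pole kinase, had 85.8 and 104.8. Plk4, which starts centriole duplication, had 149 and 199, with 2 of 2 measured probe sets higher (0.42 and 0.33). The only probe set of Plk1, the main Polo kinase of mitosis, had deposited signals of 56.9 and 36.7 and lay below the floor on both arrays after normalization.

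Spindle checkpoint transcripts differed little. The 4 measured genes, with 3 higher and 1 lower, had differences between -0.17 and 0.30 and a median of 0.07. Bub3, a WD-repeat protein that brings the checkpoint kinases to kinetochores, was bright and near equal at 1536 and 1571. Mad2l1, which inhibits Cdc20, had 215 and 191. Bub1b, the gene of BubR1, had 167 and 181, and its probe sets ran from -0.04 to 0.26. Bub1, the checkpoint kinase, was above the floor in the knockout only (83.2, at least 1.23-fold higher), and Ttk, the kinase MPS1, was below it on both arrays.

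Among activators and substrates of the anaphase-promoting complex, Cdc20 stood apart from the others on the list. Cdc20 activates the complex in mitosis and is the target of the checkpoint. It read 172 in wild type and 96.6 in the knockout, 1.78-fold lower, and its second measured probe set had 138 and 95.4. The deposited intensities of the probe set used were also lower, 142.3 and 114.0, although the median measured gene was higher in the knockout by 0.54. Fzr1, which encodes CDH1, the activator used after mitosis, had 437 and 419, a difference of -0.06. Ube2c and Ube2s, the enzymes that begin and extend its ubiquitin chains, had differences of -0.03 and 0.00. Espl1, the gene of separase, which cuts cohesin, had 172 and 166. Pttg1, securin, the inhibitor of separase, was the brightest of the 48 genes (3535 and 3263, a difference of -0.12). The median of these 6 genes was -0.06, with 5 lower.

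Kinetochore and centromere genes were the dimmest of the 8 groups, with a median signal of 84.2, and their 6 measured members divided evenly (3 higher, 3 lower, median -0.04). Relative to all genes this median was -0.34 over 7 genes without scaling and turned to 0.11 over 9 genes with no floor. Cenpo, a subunit of the inner kinetochore, had the highest difference of all, 70.4 against 163.2 or 2.32-fold, but at a probe set of the _s_at type; its other measured probe sets had 73.1 and 84.4, and 89.7 and 76.2, differences of 0.21 and -0.24. Cenpe, the kinesin that carries chromosomes to the equator, was above the floor in knockout only (84.3, at least 1.25-fold higher). Cenpa, the histone variant that marks centromeres, had 162 and 165. Cenpk, an inner kinetochore subunit, had 81.0 and 68.7.

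Both measured subunits of the Ndc80 complex, the kinetochore's grip on microtubules, were lower, but for Spc24 the floor fixed the direction. Spc25 had 115 and 76.5, 1.51-fold lower, and its second probe set had 87.2 and 81.9, a difference of -0.09. Spc24 was above the floor in wild type only, at 73.1, and at least 1.08-fold lower. Their partners Ndc80 and Nuf2 lay below the floor, with deposited signals up to 6.35 and 23.0 in wild type and 15.9 and 74.8 in the knockout. After normalization Ndc80 had 6.98 in wild type and 14.6 in the knockout, and Nuf2 had 25.3 and 64.7. These values under the floor lay in the other direction.

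Spindle motors and microtubule proteins were higher in 5 of 8 measured cases, with a median of 0.14; relative to all genes this median turned to -0.14 over 9 genes without scaling and was 0.00 with averaged probe sets. Kif2c, the kinesin MCAK, which takes microtubules apart at centromeres, had 159 and 92.5, 1.72-fold lower. All 4 of its measured probe sets were lower, but 1 was all but equal (85.7 and 85.4), and 2 were above the floor in wild type only, at 83.4 and 85.6, so that their differences are bounds. Tpx2, which activates Aurora A on the spindle, had 183 and 131, with 3 of 3 measured probe sets lower (-0.28 to -0.57). Kif22, a chromokinesin, went the other way with 242 and 336 at its only measured probe set. Stmn1, a tubulin-binding protein, had 455 and 580, with 2 of 2 probe sets higher. Kif11, the motor that separates the poles, had 105 and 123. Hmmr, a spindle assembly factor, had 82.9 and 102.1 at the probe set used and lower values at its other 3 measured probe sets. Of these 3, 2 were above the floor in wild type only and could not come out higher, and the remaining one was at -0.05. Nusap1, which bundles spindle microtubules, had 220 and 198, and Tacc3, which strengthens kinetochore fibres, had 71.6 and 74.6.

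Transcripts for cytokinesis differed little. The 6 measured genes lay between -0.36 and 0.14, with 4 higher and 2 lower and a median of 0.05, which turned to between -0.05 and -0.13 relative to all genes with centring, with scaling on hybridisation controls and without scaling. Racgap1, a component of centralspindlin, had 184 and 144, whereas its partner Kif23 had 96.5 and 104.0. Prc1, which crosslinks the central spindle, had 113 and 118, and Anln (anillin), the scaffold of the contractile ring, had 82.4 and 90.9. Ect2, the activator of RhoA at the cleavage site, was above the floor in wild type only, at 73.2, and Kif20a, a kinesin of the central spindle, in knockout only, at 69.6, so both are bounds of at least 1.08-fold and 1.03-fold.

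Chromosome structure genes held the most widely used proliferation markers. Mki67, the gene of the Ki-67 antigen, had 840 and 968 at its only probe set, a difference of 0.21 that lay within the probe set SD. Top2a, topoisomerase II alpha, had 253 and 242. The condensin subunits, which compact chromosomes, differed in direction. Ncaph had 111 and 175, 1.57-fold higher, and a second probe set above the floor in the knockout only, at 87.5 (at least 0.37 higher on the log2 scale); the first is of the _x_at type, and without such probe sets Ncaph no longer passed 1.5-fold. Ncapd2 of the same complex had 102 and 71.1, with a second probe set only just above the floor in the knockout (67.7) and below it in wild type. Smc4 had 773 and 888, with 2 of 3 probe sets higher, and its partner Smc2 had 243 and 233. The median of this group was 0.07, and relative to all genes it was -0.04 without scaling.

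**Figure D3:**
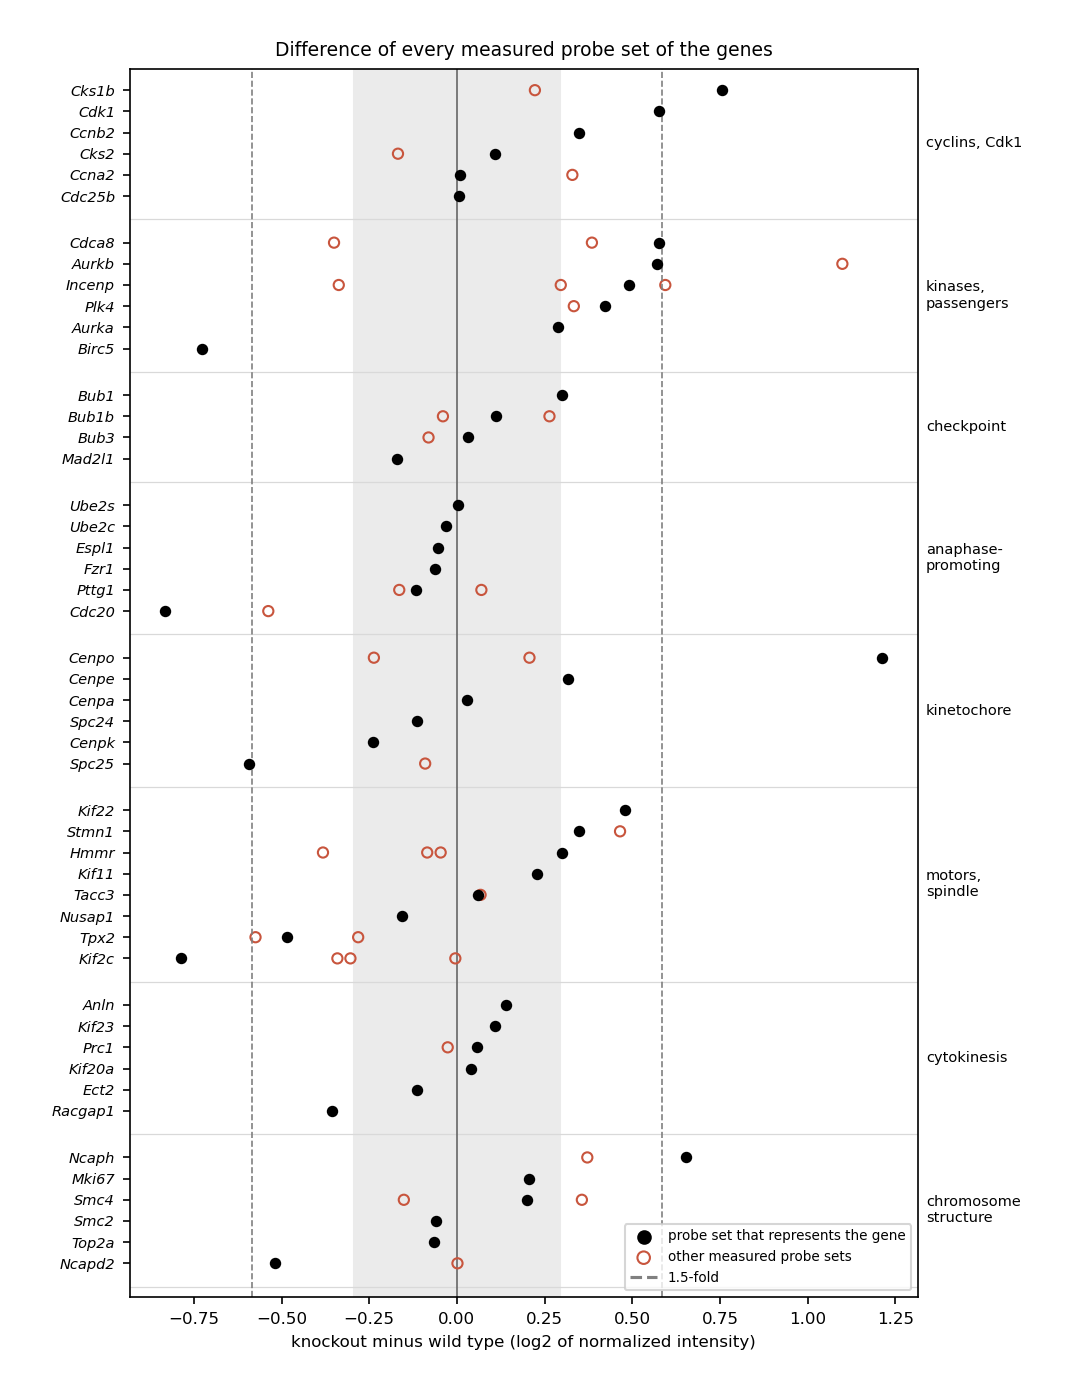
Difference between knockout and wild type (log2) at each of the 82 measured probe sets, 1 row per gene, with filled circles for the probe set that represents the gene, open circles for its other measured probe sets, a grey band of 1 probe set SD (0.29) on either side of 0 and dashed lines at 1.5-fold. Open circles lie on the same side of 0 as the filled one for Cks1b, Aurkb, Cdc20, Kif2c and Tpx2 and lie on the other side of 0 for Cenpo, Cdca8, Incenp and Hmmr in at least 1 case. A probe set above the floor on 1 array only had its side fixed by the floor, as in Aurkb, Kif2c, Incenp and Hmmr.

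Probe sets of one gene often disagreed. Of the 135 probe sets, 82 were measured, 45 of them higher and 37 lower. Of 22 genes with several measured probe sets, 7 were higher at all of them (31.8%, against a background of 24.3% of such genes) and 4 lower at all (18.2%, against 22.0%), which leaves 11 with mixed directions. The 7 were Aurkb, Ccna2, Cks1b, Ncaph, Plk4, Stmn1 and Tacc3. The 4 were Cdc20, Kif2c, Spc25 and Tpx2. Where a probe set was above the floor on 1 array only, the floor fixed its direction, so it is no check. This held for the second probe sets of Aurkb, Ncaph and Tacc3 (knockout only) and for some of Kif2c (wild type only). The background was counted in the same way. A further 26 genes, Cdk1, Birc5 and Mki67 among them, had 1 measured probe set and no such check.

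In the deposited intensities, before any scaling, 7 of the 48 genes were lower in the knockout, 14.6% against a background of 8.88%. They were Cdc20, Birc5, Kif2c, Spc25, Spc24, Ncapd2 and Ect2. Birc5 had deposited signals of 108.8 and 91.5, Kif2c of 132.0 and 108.8, and Spc25 of 97.0 and 89.2. These 7 were thus lower with and without normalization.

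**Figure D4:**
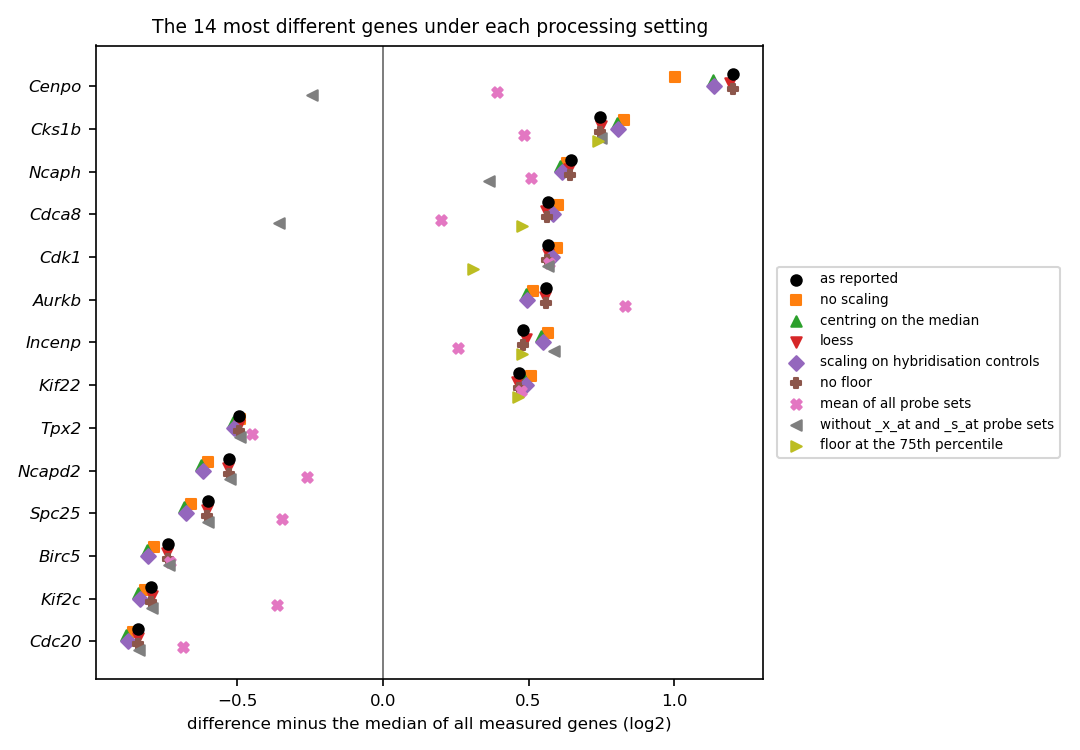
Difference minus the median of all measured genes (log2) for the 14 most different genes, 1 row per gene, with a symbol for each way of scaling, flooring or choosing probe sets. The 6 genes on the left of 0 stay there under all settings run for them, while Cenpo and Cdca8 cross to -0.24 and -0.36 without probe sets of the _x_at and _s_at types.

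Mitosis genes outside the list also differed in both directions. Of a second list of 75 genes, written from general knowledge, 50 were measured, with 30 higher (60.0%, against 51.5% of all measured genes) and 20 lower. Of the 50, 6 were above the floor in the knockout only and 4 in wild type only, which fixed their direction. The median was 0.08, or 0.00 with averaged probe sets. In each direction 2 passed 1.5-fold, against backgrounds of 4.57% (higher) and 4.1% (lower) of all measured genes. Cenpu, an inner kinetochore subunit (116.2), and Ccnf, cyclin F (110.2), were above the floor in the knockout only and at least 1.72-fold and 1.63-fold higher. Zw10, which recruits dynein to kinetochores, had 429 and 260, and Ska2, of the complex that couples kinetochores to microtubules, had 175 and 108. Of 15 measured genes of the anaphase-promoting complex and its inhibitor, 10 were higher and 5 lower (median 0.04), and only the inhibitor Fbxo5, the gene of EMI1, passed 1.5-fold (84.6 and 138.2). Cohesin, the ring that holds sister chromatids together, and its loaders and regulators were lower in 8 of 11 cases with a median of -0.15; Mau2, a cohesin loader, had 167 and 77.7, but 2 of its 3 measured probe sets were higher.

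DNA replication genes, another list of cell cycle genes, lay higher. Of 49 measured, 34 were higher and 15 were lower, and the median was 0.23 against 0.05 for mitosis and spindle genes. Upward, 8 of the 49 passed the size rule and downward 1, against backgrounds of 4.57% and 4.1% of all measured genes. In the dimmest bin 4 of its 13 replication genes passed upward (30.8%), against 7.65% of all genes there. Among these 4, Gins1 and Clspn were above the floor in the knockout only and could not come out lower. Of all 49, 4 were above the floor in the knockout only and 2 in wild type only, so the floor fixed their direction. Relative to all genes the replication median lay between 0.22 and 0.27 under every scaling, but it was 0.17 with averaged probe sets. Rrm2, a subunit of ribonucleotide reductase, had 222 and 391 and Mcm4, of the replicative helicase, 408 and 716, while Mcm2 of the same helicase had 386 and 230 with its probe sets in disagreement. Cdt1, which loads that helicase, had 313 and 513. Gins1, of the same machinery, was above the floor in the knockout only (121.0, at least 1.79-fold higher). The difference between the lists was not tested, since each genotype had 1 array.

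**Figure D5:**
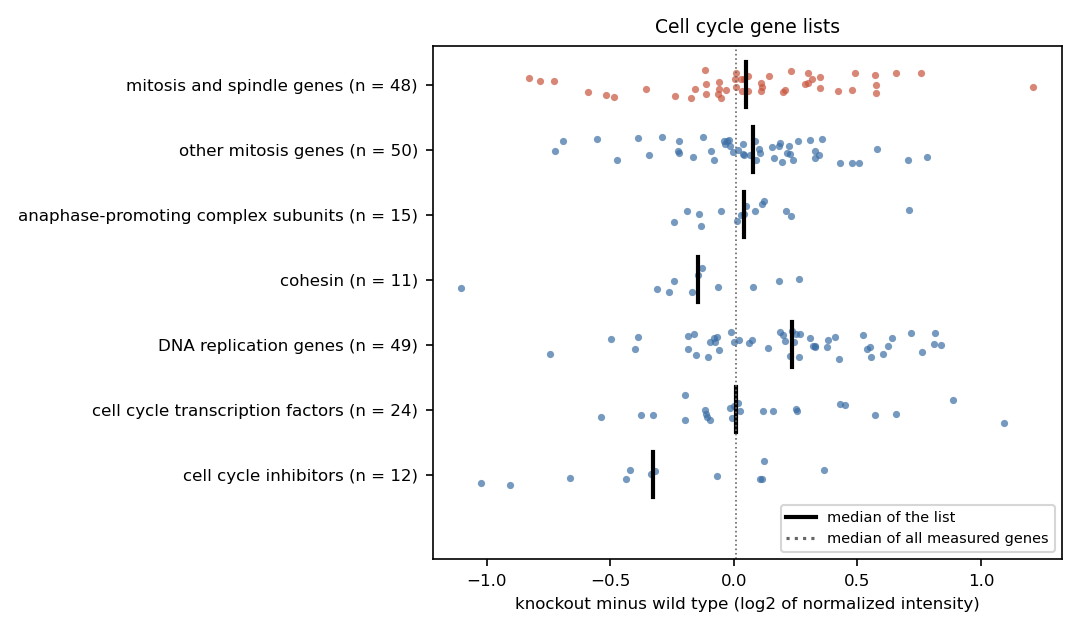
Difference between knockout and wild type (log2) of each measured gene in 7 cell cycle lists, 1 point per gene, with a black bar at the median of the list and a dotted line at the median of all measured genes (0.01). The bar of the mitosis and spindle genes lies at 0.05, that of the replication genes at 0.23 and that of the cell cycle inhibitors at -0.33.

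Markers of other cell types in such cultures also differed between the arrays. Of 11 B cell and plasma cell markers 5 were measured and all were lower. Their summed signal was 1621 in wild type and 438 in the knockout. For 3 of the 5, above the floor in wild type only, the floor fixed the direction. The knockout sum holds the floor value for these 3. Cd79a, Pax5 and Ebf1 lay below the floor. Of 11 mast cell and basophil markers 7 were measured and 6 were lower (summed signal 3400 and 1946), with Fcer1a below the floor. Of the 6, 3 were likewise above the floor in wild type only and could not come out higher. Granulocyte and precursor markers had summed signals of 23587 and 25844 over 14 measured of 17, with 8 lower and a median difference of -0.24. Macrophage and monocyte markers had 49349 and 49816 over 11 of 14, with 8 higher and a median difference of 0.20. Only 2 of 8 erythroid markers were measured (4888 and 2416), and Hba-a1, Klf1 and Alas2 lay below the floor. Of 10 stem and progenitor markers 5 were measured (1156 and 1208), with Cd34 and Myb below the floor; Kit and Gata2 are on this list and on the mast cell list. T and NK cell markers had summed signals of 475 and 372 over 3 of 9, with Cd3e, Cd3d and Cd3g below the floor. Of these 3, 2 were higher and 1 lower (median 0.17, lowest -1.12), so the sum and the median differed in direction. Stromal markers had 391 and 360 over 4 of 6, with 2 higher and 2 lower. Their part in the differences of the mitosis genes was not tested.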

How the data were processed

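Per the labels' protocols, 6 ug of total RNA was labelled for each array by Affymetrix's standard method. The authors deposited 1 linear intensity per array for 45101 probe sets; how these were summarised or scaled is not given in the labels. Gene names came from the platform annotation, updated by gene identifier to RefSeq (GRCm38.p6), where 18032 of 18193 genes matched. Of 45037 probe sets other than 64 controls, 34945 named 1 gene, 932 several and 9160 none.

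Because the deposited medians differed by 34.1%, above a limit of 10%, log2 intensities were quantile normalized. Values under the median (67.6) were set to it. A gene was represented by its probe set with the highest mean, chosen without regard to the difference. Members, lists, role groups and rules were chosen with earlier results of these data known. All members were named; those at least 1.5-fold different were given with all their measured probe sets, and of other lists, genes at least 1.5-fold different could be named, of which only some are. Defining markers and the named regulators within 1.5-fold (Foxm1, Mybl2, Lin9, Lin52, Nfya, Nfyb, Cdkn1a, Cdkn1b and Wee1) were named outside this rule, after their values were seen. No p-value was computed, and no depth can be stated for arrays, whose number limits the precision. The scaling steps alone were tested on simulated data, not the floor, the choice of probe set, the size rule or the motif search. Python 3.11.15, numpy 2.4.6, pandas 2.3.3 and statsmodels 0.14.6 (loess span 0.3) were used. Alternatives were 4 scalings, 2 floors and 2 choices of probe set.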

Additional observations from a re-analysis of the deposited data

How the results depend on the processing

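No paired analysis was possible because each genotype had 1 array, and for the same reason no replicate could be left out. The median difference of mitosis and spindle genes, 0.05, was 0.55 without scaling, 0.16 with centring on the median, 0.25 with scaling on hybridisation controls and 0.20 over the 15 genes left with the floor at the 75th percentile; the first 3 move with the median of all genes, which was 0.54, 0.14 and 0.23. It was lower, 0.02, with averaged probe sets and 0.01 without _x_at and _s_at probe sets. The median of other mitosis genes, 0.08, was 0.56 without scaling, 0.27 with hybridisation controls and 0.00 with averaged probe sets. The median of DNA replication genes, 0.23, was 0.76, 0.41 and 0.48 without scaling, with centring and with hybridisation controls. With averaged probe sets it was 0.17. The number of mitosis and spindle genes at least 1.5-fold higher, 3, was 22 without scaling, 8 with centring, 10 with hybridisation controls, 7 with no floor (57 genes), 1 with the floor at the 75th percentile and 1 with averaged probe sets. The number at least 1.5-fold lower, 4, was 0 without scaling, 2 with hybridisation controls, 7 with no floor, 0 with the higher floor and 2 with averaged probe sets. Loess kept 3 and 4. The difference of Cenpo was -0.24 without _x_at and _s_at probe sets, where another probe set stood for the gene. Dim signal is one limit, beside the single array per genotype: 24 of 48 genes lay in the dimmest bin, and the floor is not a detection call.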

Other observations

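Genes that restrain or drive the cell cycle from outside the mitotic machinery also differed between the arrays. Of 12 measured cell cycle inhibitors, 8 were lower in knockout cells, with a median of -0.33 on the log2 scale, and relative to all genes that median lay between -0.27 and -0.34 under every scaling. Cdkn2c, which inhibits the CDK partners of cyclin D, had 189 in wild-type and 93.3 in knockout cells, Gadd45a, a stress-induced growth arrest gene, 503 and 268, and Cdkn2b, an inhibitor of the same kinases, 921 and 582, each at 1 measured probe set. Cdkn1a, the gene of the CDK inhibitor p21, was bright at 5311 and 3966, with 2 of 2 probe sets lower, and Cdkn1b, the gene of p27, had 433 and 467. Wee1, the kinase that holds Cdk1 inactive, was higher (111 and 142).

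Of 24 measured transcription factors of the cell cycle, 13 were higher and 11 lower (median 0.01). E2f6, a repressor of the E2F family, had 130 and 278, Myc 89.5 and 141.1, and E2f2 was above the floor in the knockout only and at least 1.85-fold higher. Foxm1, a main activator of late cell cycle genes, had 95.6 and 96.7, and Mybl2, its partner on their promoters, was above the floor in wild type only (at least 1.25-fold lower). Lin52, a subunit of the MuvB complex, had 147 and 101 with its probe sets in disagreement, and Lin9 of the same complex 113 and 153. Nfya, the NF-Y subunit that reads CCAAT, had 486 and 374, with 2 of 2 probe sets lower, while Nfyb had 307 and 366.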
